A study of Mus musculus with 8 samples.

Results

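The postsynaptic scaffold proteins and plasticity kinases are 40 listed genes whose products couple *N*-methyl-D-aspartate receptors (NMDAR) to signaling inside the dendritic spine. They were chosen by gene symbol and matched to array probes through the RefSeq accession of each probe. All 40 had a tested probe, out of 15090 named genes with one. Total RNA came from the hippocampus of adult male Muta Mouse, a transgenic strain that carries a bacterial reporter gene for mutation assays, at 9 weeks of age. The 4 mice of the BaP group received benzo[*a*]pyrene (BaP), a polycyclic aromatic hydrocarbon, in olive oil by oral gavage at 70 mg/kg bw per day on 3 days. The 4 mice of the control group received olive oil alone, and in both groups the tissue was taken 24 hr after the last dose. RNA of each mouse was labeled with Cy5 and hybridized to its own array of 1 slide, alongside Cy3-labeled universal mouse reference RNA. The dyes were not swapped.

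Excitatory synapses hold a dense layer of proteins beneath the membrane that faces the presynaptic terminal. In it, proteins of the PSD-95 family bind the tails of NMDAR, SAPAP proteins bind the PSD-95 family, SHANK proteins bind SAPAP, and HOMER proteins tie SHANK to metabotropic glutamate receptors and to calcium stores. Calcium that enters through NMDAR binds calmodulin, which activates calmodulin-dependent kinases (CaMK) and the phosphatase calcineurin. These enzymes act in opposite directions on the number of AMPA receptors in the spine, and in the hippocampus this balance is central to long-term potentiation, long-term depression and spatial learning.

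Promoter sequence was examined because BaP is an agonist of the aryl hydrocarbon receptor (AHR) and because several synaptic genes respond to the transcription factor CREB1, itself one of the 40 genes. Windows of 250 bases before a start site came from the RefSeq promoter table of the mouse build GRCm38.p6. Those of listed genes on 1 chromosome were left out, and the search covered 48 windows for 31 of the 40 genes. The windows of all genes kept that chromosome, so the shares below do not come from like sets. The core letters of an AHR site, GCGTG on either strand, were in 17 of these windows (35.4%), against 28.2% of 32851 windows of the same length. The core letters of a CREB1 site, TGACG on either strand, were in 7 windows (14.6%), against 17.8% of all. The full palindrome TGACGTCA was in 0 of the 48 windows and in 1.55% of all. *Homer1* and *Camk2d* are shown because their probes carried the patterns described below. *Homer1* has 2 windows. The first lies on the plus strand at chr13:93303507-93303756 and held 1 AHR core and 3 CREB1 cores, in capitals, while the other, at chr13:93307784-93308033, held 0 of either and is not printed. The *Camk2d* window lies on the plus strand at chr3:126596701-126596950 and held neither. A match is a run of letters and does not show that a factor binds there.
Homer1 promoter: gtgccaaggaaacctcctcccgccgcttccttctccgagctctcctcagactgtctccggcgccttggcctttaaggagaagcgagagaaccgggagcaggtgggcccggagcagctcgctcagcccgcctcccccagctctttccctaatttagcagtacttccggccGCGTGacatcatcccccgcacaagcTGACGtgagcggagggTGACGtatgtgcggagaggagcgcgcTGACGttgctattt
Camk2d promoter: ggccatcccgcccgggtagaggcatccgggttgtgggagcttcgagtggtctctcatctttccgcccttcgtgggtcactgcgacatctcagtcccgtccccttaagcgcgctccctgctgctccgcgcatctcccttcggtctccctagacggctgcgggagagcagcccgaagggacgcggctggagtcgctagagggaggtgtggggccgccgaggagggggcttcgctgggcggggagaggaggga

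Per array, spots had a median Cy5 intensity between 108 and 174, with background between 67 and 71. Outlier spots numbered 1483 on the array of control mouse 1 and 310 to 371 elsewhere. For 4 of the 8 mice (control mice 3 and 4 and BaP mice 3 and 4) the GEO title and source name disagree about the group. The titles were used, because the animal numbers in the labels form one consecutive run under the control titles and a separate range under the BaP titles. These 4 arrays formed the lower row of the slide (row 2), so that label conflict and slide row cannot be told apart. All 40 genes were well above background on all 8 arrays and none was saturated. Their values below are either a log2 ratio of hippocampus over reference, which is a level for 1 gene in 1 mouse, or a log2 fold change of BaP over control, which is the difference between the group means of that ratio.

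The genes stood far above the reference RNA. The log2 ratio was above 0 in every mouse with a value for 36 of the 40 genes, where this held for 46% of all tested genes. Its control mean was 2 or more for 27 genes, against 14% of all. The median control mean was 3.38 for the listed genes and 0.12 for all genes. The control means were 6.65 for *Dlgap3*, 6.47 for *Cnksr2*, 5.97 for *Camk2a*, 5.82 for *Camk2b* and 5.61 for *Akap5*. *Camk2d* and *Pick1* were below the reference in every mouse, as were 36.5% of all tested genes, while *Shank2* and *Nos1* had values on both sides of 0. The reference RNA is a common standard for all 8 arrays, and a dye effect of a probe is part of each of these ratios, so they are given as a description. The plot of log2 ratios by mouse shows that differences between genes were much wider than those between mice.

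**Figure D1:**
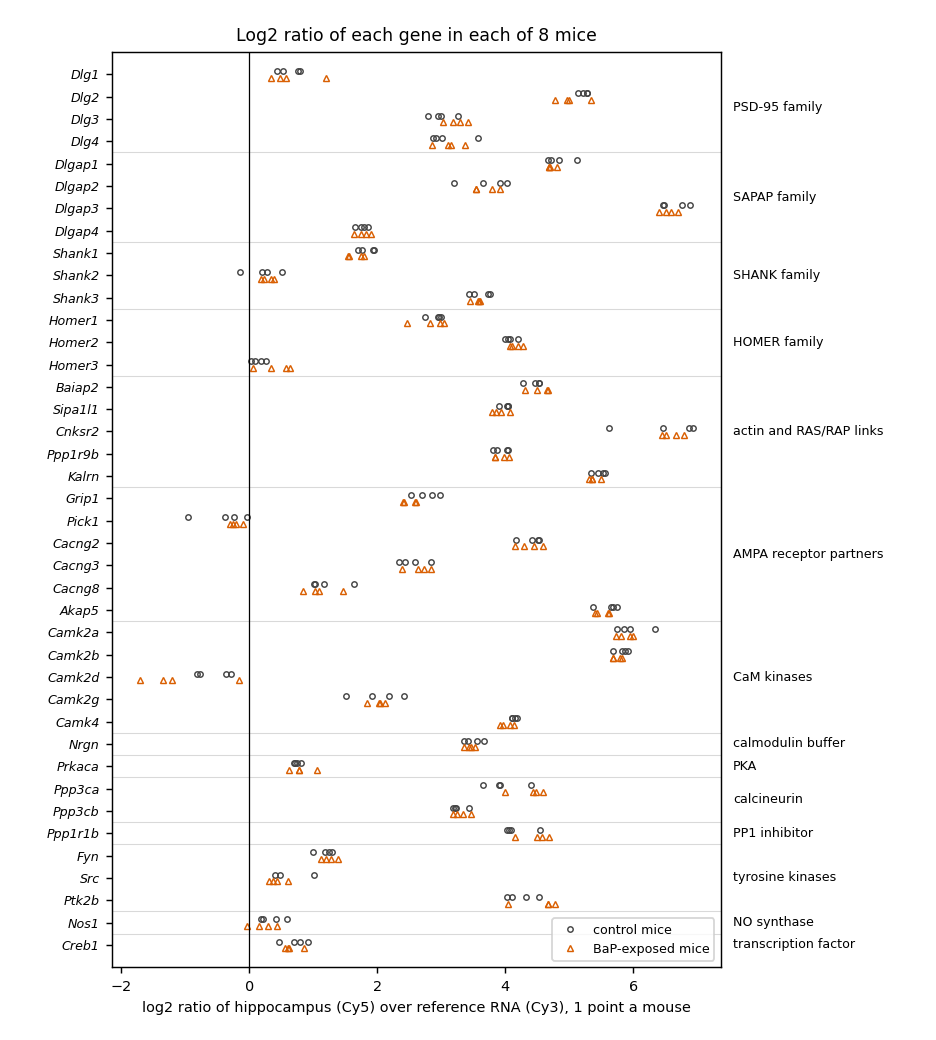
Log2 ratio of hippocampus (Cy5) over reference RNA (Cy3) for the 40 genes, grouped by role, with 1 point for each of 4 control mice (circles, 3 for *Src*) and 4 BaP-exposed mice (triangles). The values of the 2 groups intermix in every row, 36 genes lie above 0 in every mouse with a value, and *Camk2d* and *Pick1* lie below 0.

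Between BaP-exposed and control mice, no scaffold, kinase or phosphatase gene of the list passed the test. The call required a 1.5-fold difference and an adjusted p of at most 0.05 from limma, adjusted by the Benjamini-Hochberg method over 32600 probes. It was met by 0 of the 40 genes, and their lowest adjusted p was 0.544. Such calls were rare on these arrays, at 3 of 15090 genes (0.0199%) or 3 of all tested probes (0.0092%). At an unadjusted p under 0.05 there were 2 of the 40 genes, *Grip1* and *Ppp3ca* (5%), where 9.44% of all genes were found. Values of the groups overlapped for all 40 genes, while they did not overlap for 5.29% of all genes and 5.06% of all probes. The estimates were above 0 for 18 genes and below 0 for 22, and 50% of all genes were above 0. Median centring in place of loess moved the median of all genes to 0.21 and put 34 of the 40 above 0, so directions hold relative to the loess curve. The median log2 fold change was -0.02 for the list and -0.00 for all genes, and 0 of the 40 genes differed by 1.5-fold or more, as 1.4% of all genes did.

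The intervals describe the precision of the estimates, and they hold only for the grouping by title, the offset of 50 and loess. For 35 of the 40 genes (87.5%) the 95% confidence interval of the fold change lay wholly within 1.5-fold in either direction, and for all genes this share was 86.3%. Within row 2 of the slide alone, fewer of the 40 genes had such an interval, as given below. The 5 others were *Cnksr2*, *Camk2d*, *Ppp3ca*, *Ppp1r1b* and *Ptk2b*. The median standard error of the log2 fold change was 0.12 for the list and 0.11 for all genes. The median standard deviation among mice was 0.18 in the control group and 0.13 in the BaP group. In bulk tissue, fewer cells of a type and less RNA per cell cannot be told apart.

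**Figure D2:**
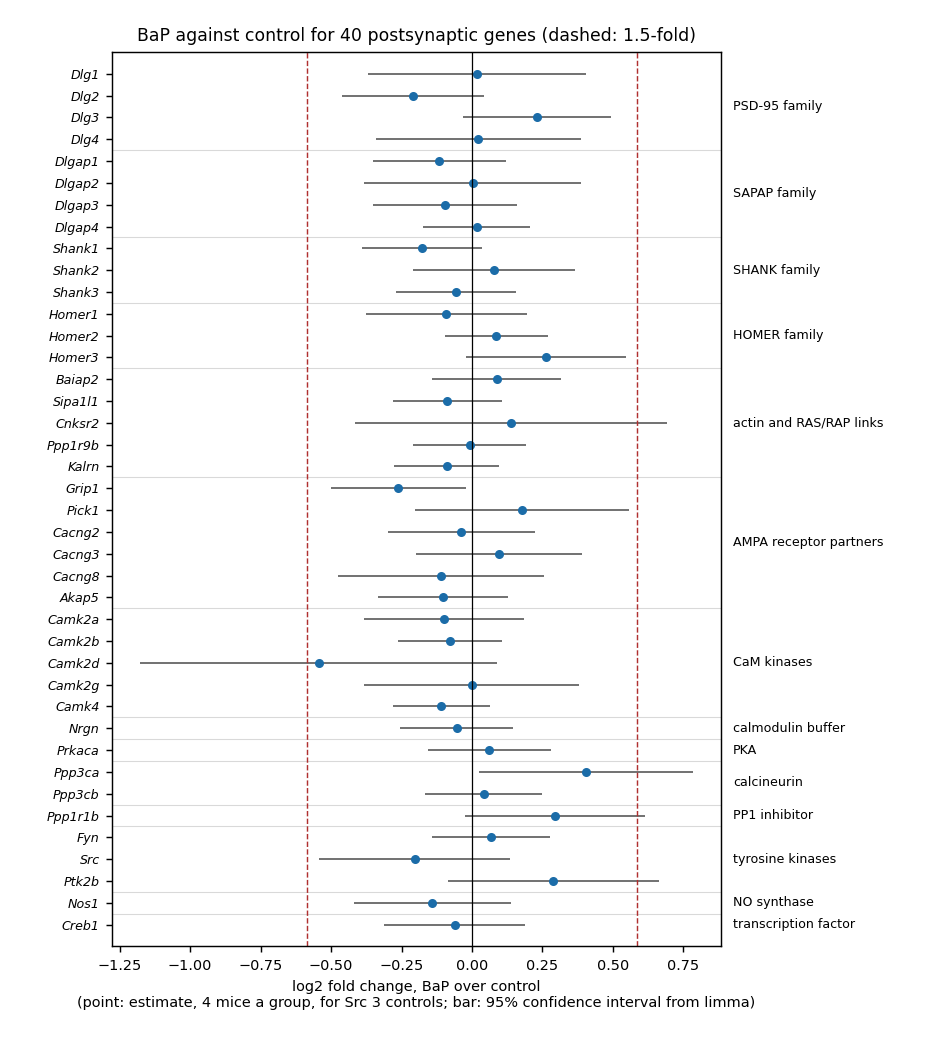
Log2 fold change of BaP over control for the 40 genes by role, with points for the limma estimate and bars for its 95% confidence interval; dashed lines mark 1.5-fold. The bars of 35 genes stay between the dashed lines and those of *Cnksr2*, *Camk2d*, *Ppp3ca*, *Ppp1r1b* and *Ptk2b* cross one.

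Among the PSD-95 family, *Dlg4* encodes PSD-95 itself. Its log2 ratios were 2.87, 3.02, 2.92 and 3.58 in control mice 1 to 4 and 3.37, 3.10, 2.86 and 3.14 in BaP mice 1 to 4. The BaP values lay within the range of the controls apart from BaP mouse 3, which was just below it, and the log2 fold change was 0.02 (standard error 0.16, limma adjusted p = 0.980). *Dlg3* encodes SAP102, the family member that is abundant early in development. It was at 3.25, 3.00, 2.80 and 2.95 in control mice and at 3.19, 3.42, 3.29 and 3.03 in BaP mice. Control mouse 1 lay among the BaP mice, and the log2 fold change was 0.23 (standard error 0.12, limma adjusted p = 0.600). *Dlg2*, which encodes PSD-93, was at 5.14, 5.28, 5.22 and 5.27 in control mice and at 5.33, 4.99, 4.78 and 4.97 in BaP mice. BaP mouse 1 was above every control mouse and the other BaP mice were below every one, and the log2 fold change was -0.21 (standard error 0.11, limma adjusted p = 0.617). *Dlg1*, which encodes SAP97, had a log2 fold change of 0.02.

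The 4 SAPAP genes, which link PSD-95 to SHANK, had log2 fold changes of -0.12 for *Dlgap1*, 0.00 for *Dlgap2*, -0.10 for *Dlgap3* and 0.02 for *Dlgap4*. Of the SHANK genes, *Shank3*, the scaffold gene disrupted in Phelan-McDermid syndrome, was at 3.43, 3.51, 3.73 and 3.77 in control mice and at 3.60, 3.57, 3.58 and 3.46 in BaP mice. All BaP values fell inside the control range, and the log2 fold change was -0.06 (standard error 0.10, limma adjusted p = 0.877). *Shank1* was at 1.70, 1.75, 1.93 and 1.95 in control mice and at 1.74, 1.54, 1.56 and 1.78 in BaP mice. BaP mice 2 and 3 were below every control mouse and BaP mice 1 and 4 were among them, and the log2 fold change was -0.18 (standard error 0.10, limma adjusted p = 0.613). The estimate for *Shank2* was 0.08.

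The HOMER genes encode adaptors whose long forms cross-link SHANK and group I metabotropic receptors. *Homer3* was at 0.27, 0.18, 0.09 and 0.03 in control mice and at 0.64, 0.57, 0.34 and 0.06 in BaP mice. BaP mice 1 to 3 were above every control mouse and BaP mouse 4 was among the controls, and the log2 fold change was 0.26 (standard error 0.13, limma adjusted p = 0.588). *Homer2* had an estimate of 0.09.

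*Homer1* has a short, activity-induced form, HOMER1A, which uncouples the scaffold, and long forms that build it. Its brightest probe was at 2.95, 2.75, 2.96 and 3.00 in control mice and at 3.04, 2.46, 2.82 and 2.97 in BaP mice, so that the groups overlapped. The log2 fold change of that probe was -0.09 (standard error 0.13, limma adjusted p = 0.858). The 5 tested probes of *Homer1* carry 2 different transcript accessions, and their estimates ran from -0.37 to -0.05. The probe furthest from 0, A_55_P1982121, was at 1.58, 1.37, 1.79 and 1.71 in control mice and at 1.41, 1.18, 1.12 and 1.25 in BaP mice. BaP mice 2 to 4 were below every control mouse and BaP mouse 1 was just above control mouse 2. The log2 fold change of this probe was -0.37 (standard error 0.11, limma adjusted p = 0.496), and it was the only one of 28 dimmer probes of the listed genes with an unadjusted p under 0.05, where 8.76% of all tested probes had one. Which *Homer1* form the probe reads was not determined, because probe sequences were not used here.

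Of the genes that tie the scaffold to actin and to small GTPases, *Baiap2* (IRSp53), *Sipa1l1* (SPAR), *Ppp1r9b* (spinophilin) and *Kalrn* (an exchange factor for small GTPases) had log2 fold changes between -0.09 and 0.09. *Cnksr2*, a scaffold of RAS signaling, was at 5.62, 6.46, 6.93 and 6.87 in control mice and at 6.67, 6.52, 6.45 and 6.79 in BaP mice. Control mouse 1 was alone far below the others, and the log2 fold change of 0.14 (standard error 0.25, limma adjusted p = 0.892) became -0.145 without it (limma adjusted p = 0.749). In that mouse the log2 Cy5 signal of the *Cnksr2* probe, relative to the median of the tested probes on the array, was 4.89, within the 4.84 to 5.23 of the other mice. On the same scale the Cy3 signal, from the reference RNA, was -0.12 on that array and -1.501 to -0.91 on the others. The deviation of that mouse was thus in the reference channel.

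Among partners of AMPA receptors, *Grip1* encodes a multi-PDZ protein that binds the receptor subunit GluA2 and carries it to dendrites. Its log2 ratios were 2.53, 2.97, 2.70 and 2.85 in control mice and 2.58, 2.42, 2.60 and 2.40 in BaP mice. Control mouse 1 lay among the BaP mice, and the other controls were above every BaP mouse. The log2 fold change was -0.26 (standard error 0.11, limma adjusted p = 0.544), and the 2-sided exact permutation test over the 8 mice gave p = 0.0857, where 0.0286 is the smallest p that 4 mice against 4 allow. The estimate was -0.25 within the upper row of the slide (row 1) and -0.27 within row 2, but 0.0121 with the mice grouped by source name in place of title. *Pick1*, which competes with GRIP1 for GluA2, had an estimate of 0.18, and *Akap5*, the anchor of PKA and calcineurin at the membrane, had -0.10. The auxiliary subunits *Cacng2* (stargazin), *Cacng3* and *Cacng8* had -0.04, 0.10 and -0.11.

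With loess normalization the brightest probes of all 5 CaMK genes had an estimate below 0, from -0.54 to -0.00, and 0 of them passed the test, while median centring of the arrays put *Camk2a* at 0.16 and *Camk2b* at 0.18. *Camk2a*, the main kinase subunit of forebrain excitatory synapses, was at 5.86, 5.95, 5.75 and 6.34 in control mice and at 5.999, 5.95, 5.81 and 5.74 in BaP mice. Control mouse 4 was above the other mice, which lay close together, and the log2 fold change was -0.10 (standard error 0.13, limma adjusted p = 0.841). *Camk2b*, whose product binds actin, was at 5.87, 5.69, 5.91 and 5.82 in control mice and at 5.68, 5.68, 5.80 and 5.82 in BaP mice. The groups overlapped, and the log2 fold change was -0.08 (standard error 0.08, limma adjusted p = 0.799). The dimmer probes of these genes were at -0.37 for *Camk2a* (standard error 0.21, limma adjusted p = 0.626) and at 0.08 for *Camk2b*, of opposite signs. *Camk2g* had an estimate of -0.00. *Camk4*, a nuclear kinase that acts on CREB1, had -0.11 on its brightest probe and 0.27 and -0.09 on its other probes, which was the widest disagreement between probes of a gene with estimates of both signs.

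*Camk2d* had the widest difference of the list and the widest spread. Its brightest probe was at -0.37, -0.81, -0.28 and -0.77 in control mice and at -1.71, -1.34, -1.21 and -0.15 in BaP mice. BaP mice 1 to 3 were below every control mouse, and BaP mouse 4 was above every one. The log2 fold change was -0.54 (standard error 0.28, limma adjusted p = 0.606), with a 95% confidence interval from -1.18 to 0.09. Both dimmer probes also had BaP mice 1 to 3 below the controls and BaP mouse 4 above them. On probe A_52_P188261, BaP mice 1 to 3 were at -1.93, -1.75 and -1.79 and BaP mouse 4 was at -0.28, while control mice ran from -1.45 to -0.86. On probe A_55_P1978830, BaP mice 1 to 3 were at -1.94, -1.84 and -1.77 and BaP mouse 4 was at -0.67, while control mice ran from -1.41 to -0.98. The log2 fold changes of these probes were -0.34 and -0.38. The difference lay in the hippocampus channel: on the brightest probe the log2 Cy5 signal, again relative to the array median, was 1.99 to 2.34 in BaP mice 1 to 3, 3.18 in BaP mouse 4 and 2.61 to 3.08 in control mice, while the log2 Cy3 signal of all 8 arrays was 3.94 to 4.28.

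Without BaP mouse 4, the log2 fold changes of the 3 *Camk2d* probes were -0.86, -0.73 and -0.67, the groups did not overlap on any of them, and limma's adjusted p was 0.181, 0.181 and 0.142. Without BaP mouse 1 they were -0.34, -0.17 and -0.25, at an adjusted p from limma of 0.695, 0.900 and 0.782. In the comparison without BaP mouse 4, 4 of the 40 genes had groups without overlap (*Camk2d*, *Homer3*, *Ppp3ca* and *Ptk2b*), where 11.8% of all genes did. BaP mouse 4 is one of the mice whose labels conflict. Within row 1 of the slide the *Camk2d* estimate was -0.93 and within row 2 it was -0.15. Among thalamus markers, the brightest probes of the transcription factors *Tcf7l2* and *Rora* were also highest in BaP mouse 4 among the BaP mice, a pair chosen after the values were seen. *Tcf7l2* was at -1.06, -0.87, -1.34 and -0.56 in control mice and at -1.59, -1.52, -1.34 and -0.44 in BaP mice. *Rora* was at 1.65, 1.13, 1.73 and 1.30 in control mice and at 1.06, 0.95, 1.05 and 1.69 in BaP mice. On another *Tcf7l2* probe, A_55_P2143724, every BaP mouse, mouse 4 included, was below every control mouse, at an estimate of -0.18. Groups did not overlap for 5.06% of all tested probes. *Prkcd* went the other way and was lowest in BaP mouse 4, at -1.74, -0.64, -0.49 and -2.39 in BaP mice 1 to 4, and *Lef1* and *Calb2* were not highest in that mouse. Of the 6 thalamus markers 5 were tested, 1 with an estimate above 0 and 4 below, and their mean deviation from the control mean was -0.19 to 0.13 in control mice and -0.28 to 0.21 in BaP mice. Of the 6 neocortex markers 5 were tested, 1 with an estimate above 0 and 4 below. Their mean deviation was -0.26, -0.19 and -0.29 in BaP mice 1 to 3, below the -0.17 to 0.18 of the control mice, and 0.06 in BaP mouse 4. The part of either list in the *Camk2d* values was not tested.

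**Figure D3:**
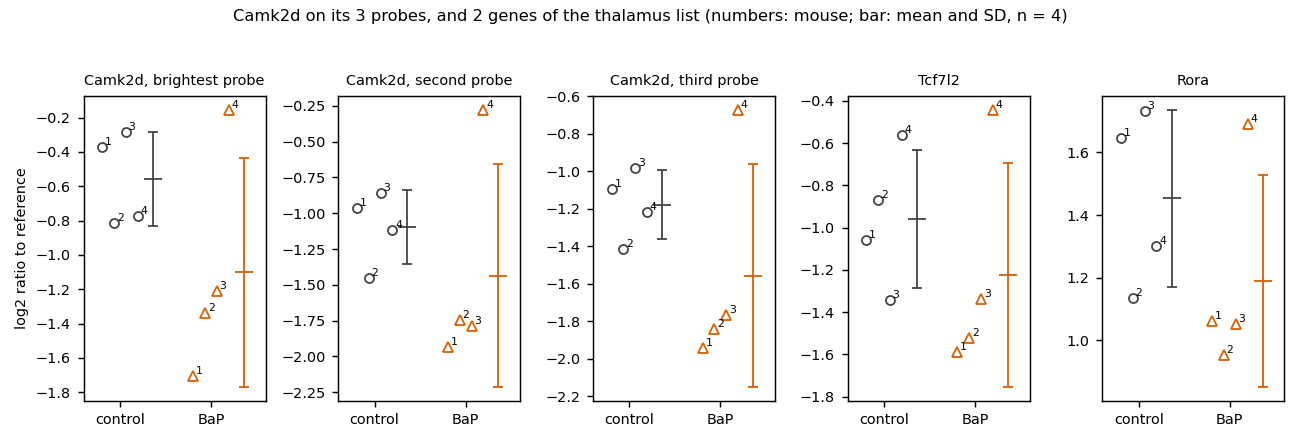
Log2 ratio to the reference of *Camk2d* on its 3 probes and of *Tcf7l2* and *Rora*, by group, with 1 numbered point for each mouse and bars for the mean and SD (n = 4), *Tcf7l2* and *Rora* on their brightest probes; the vertical scale differs between panels. On each *Camk2d* probe BaP mice 1 to 3 lie below every control mouse and BaP mouse 4 above every one.

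Calcineurin, the calcium-activated phosphatase of long-term depression, has its catalytic subunits encoded by *Ppp3ca* and *Ppp3cb* in brain. *Ppp3ca* was at 4.40, 3.90, 3.65 and 3.92 in control mice and at 4.43, 4.49, 4.59 and 3.99 in BaP mice. Control mouse 1 was the only control above BaP mouse 4, and no control was above BaP mice 1 to 3. The log2 fold change was 0.40 (standard error 0.17, limma adjusted p = 0.553), a ratio of 1.32 with a 95% confidence interval from 1.02 to 1.72, and the exact permutation p was 0.0571. Within slide rows 1 and 2 the estimates were 0.31 and 0.50, and grouping by source name turned the estimate to -0.10. *Ppp3cb* had an estimate of 0.04.

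*Ppp1r1b* encodes DARPP-32, a dopamine-regulated inhibitor of protein phosphatase 1. It was at 4.03, 4.06, 4.53 and 4.09 in control mice and at 4.15, 4.58, 4.68 and 4.49 in BaP mice. Control mouse 3 lay among the BaP mice, and the log2 fold change was 0.29 (standard error 0.14, limma adjusted p = 0.588). Since DARPP-32 is richest in striatum, 8 striatum markers were examined: 4 had an estimate above 0 and 4 below, and their mean deviation was -0.06 to 0.16 in control mice and -0.23 to 0.07 in BaP mice. One of them, the dopamine receptor gene *Drd1*, was at 1.63 in control mouse 3 and at 1.43, 1.66 and 1.65 in BaP mice 2 to 4, and at 1.14 to 1.21 in the others. These mice, the highest in *Ppp1r1b* and in *Drd1*, were also the highest in 8 choroid plexus markers. The mean deviation of those markers was 0.88 in control mouse 3 and 1.51, 1.89 and 1.02 in BaP mice 2 to 4, and it was 0.55, -0.51 and -0.92 in control mice 1, 2 and 4 and -1.47 in BaP mouse 1. The part of either tissue in the *Ppp1r1b* values was not tested.

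The tyrosine kinase *Ptk2b* (PYK2) acts through SRC on NMDAR. It was at 4.03, 4.10, 4.33 and 4.53 in control mice and at 4.66, 4.77, 4.67 and 4.05 in BaP mice. BaP mouse 4 was again apart from the other BaP mice, which were above every control mouse, and the log2 fold change was 0.29 (standard error 0.17, limma adjusted p = 0.641). Without BaP mouse 4 it was 0.45 (limma adjusted p = 0.279). The dimmer *Ptk2b* probe had an estimate of 0.03, and 0.14 without that mouse. *Fyn*, a SRC family kinase that phosphorylates GluN2B, had 0.07, and *Src* had -0.20 over 7 mice, since its spot on the array of control mouse 1 was an outlier.

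**Figure D4:**
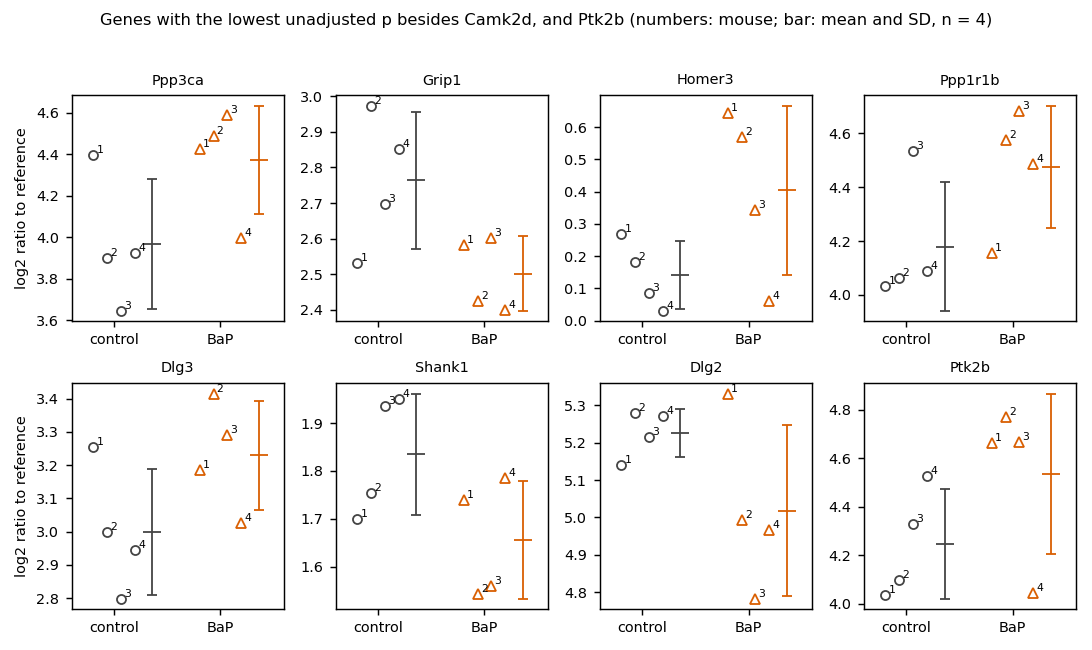
Log2 ratio to the reference of *Ppp3ca*, *Grip1*, *Homer3*, *Ppp1r1b*, *Dlg3*, *Shank1*, *Dlg2* and *Ptk2b*, with 1 numbered point for each mouse and bars for the mean and SD (n = 4); the vertical scale differs between panels. The groups overlap in every panel, and in the panels of *Ppp3ca*, *Homer3* and *Ptk2b* BaP mice 1 to 3 lie above the controls while BaP mouse 4 lies among them.

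The remaining genes carry the signal onward. *Nrgn* encodes neurogranin, which holds calmodulin near the membrane at low calcium. It was at 3.35, 3.42, 3.56 and 3.66 in control mice and at 3.44, 3.46, 3.35 and 3.52 in BaP mice, and the groups overlapped. Its log2 fold change was -0.05 (standard error 0.09, limma adjusted p = 0.878). *Creb1*, the transcription factor at the end of the cascade, was at 0.92, 0.79, 0.70 and 0.47 in control mice and at 0.56, 0.60, 0.86 and 0.62 in BaP mice. All BaP values lay inside the control range, and the log2 fold change was -0.06 (standard error 0.11, limma adjusted p = 0.894). *Prkaca*, the catalytic subunit of PKA, had 0.06, and *Nos1*, the neuronal nitric oxide synthase bound to PSD-95, had -0.14.

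No mouse had a large common shift of the list. The median deviation of the 40 genes from their control means was -0.06, -0.06, 0.01 and 0.09 in control mice 1 to 4 and 0.08, -0.07, -0.06 and -0.02 in BaP mice 1 to 4, so that the BaP mice fell inside the range of the controls apart from BaP mice 2 and 3, which were just below it. Within row 1 the median log2 fold change was 0.08 with 25 genes above 0, and within row 2 it was -0.09 with 9 above 0. Of the 17 genes with 2 or more tested probes, the probes of 10 had estimates of 1 sign and those of 7 did not.

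The receptors and the wider pathway gave the same count of calls. Of 7 NMDAR subunit genes, 0 passed the test, with 3 estimates above 0. *Grin2a*, the mature GluN2A subunit, was at 4.78, 5.44, 5.81 and 5.86 in control mice and at 6.14, 6.52, 6.03 and 5.64 in BaP mice. BaP mice 1 to 3 were above every control mouse and BaP mouse 4 was among them, and the log2 fold change was 0.61 (standard error 0.25, limma adjusted p = 0.544). *Grin3a* had a value in 3 control mice, at 3.42, 3.63 and 3.38, and was at 3.22, 2.74, 2.53 and 3.32 in BaP mice. These groups did not overlap, which held for this gene alone of the 7 and for 5.29% of all genes. The log2 fold change of *Grin3a* was -0.52 (standard error 0.19, limma adjusted p = 0.523).

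Of 68 other genes of postsynaptic and calcium signaling, 67 were tested, 34 had an estimate above 0 and 33 below, and 0 passed the test. Their median log2 fold change was 0.01, 3 had an unadjusted p under 0.05 (9.44% of all genes did), and 1, *Braf*, had groups without overlap (5.29% of all genes did). *Braf*, a kinase of the RAS pathway, was at 1.82, 1.86, 1.99 and 2.004 in control mice and at 2.13, 2.13, 2.24 and 2.02 in BaP mice. Every BaP mouse was above every control mouse, and the log2 fold change was 0.21 (standard error 0.08, limma adjusted p = 0.537). *Rgs14*, a CA2-enriched regulator of G protein signaling, had 0.36, *Ppp1cb*, a catalytic subunit of protein phosphatase 1, had 0.24, and *Begain*, a partner of PSD-95, had -0.19 with the next lowest p.

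Markers of the cells that hold these synapses were set beside the list. Of 6 neuron markers 2 had an estimate above 0 and 4 below, with a mean deviation of -0.22 to 0.18 in control mice and -0.41 to 0.01 in BaP mice. All 6 markers of dentate granule neurons had an estimate above 0 (median 0.38), with a mean deviation of -0.34 to 0.24 in control mice and of 0.32, 0.67, 0.76 and 0.06 in BaP mice 1 to 4. Of 5 markers of CA1 and CA3 pyramidal neurons 2 had an estimate above 0 and 3 below, with a mean deviation of -0.09 to 0.07 in control mice and of -0.01, 0.04, -0.24 and -0.27 in BaP mice 1 to 4. One of them, *Grik4*, had a log2 fold change of -0.64 without overlap of the groups, over 7 mice (limma adjusted p = 0.368). Groups had no overlap for 5.29% of all genes. BaP mouse 4 was the lowest of its group in the means of the dentate, pyramidal and oligodendrocyte markers (the last at -0.01, against 0.03 to 0.28 in BaP mice 1 to 3), and in *Homer3*, *Ppp3ca*, *Ptk2b* and *Grin2a*. It was the highest of its group in the means of the neuron (0.01), neocortex (0.06) and striatum (0.07) markers. None of these markers passed the test, and their part in those values was not tested.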

How the data were processed

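The authors deposited scanner files with the intensity of every spot in both channels (Agilent Feature Extraction 11.0.1.1, array annotation build mm9), and a table of log2 ratios. The log10 ratios that the authors deposited in the scanner files come from processed signals, after background subtraction and dye normalization by the scanner software, and entered no result. Per the paper, 5 animals were in a group, ratios were LOWESS normalized and tested by MAANOVA. With those methods the paper reported many more array transcripts past the same thresholds at this dose, *Grin2a* among them. The cause of that difference was not tested. The deposited log2 ratios followed loess ratios of the uncorrected intensities (r 0.998 to 0.999), and their column medians were -0.05 to -0.03.

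Median spot intensities were corrected with normexp (offset 50), outlier spots were removed, ratios were loess-normalized array by array on the log2 scale, and replicate spots were averaged (limma 3.58.1, R 4.3.3). The filter asked for Cy5 well above background on 4 or more arrays and kept 32600 of 55681 probes. Groups were compared with lmFit and eBayes, and the brightest probe in Cy5 stood for a gene. Probes were named through RefSeq (27235 of 28685 with an accession, 94.9%). The fit was tested on simulated data. Marker deviations are means over a list's genes of the log2 ratio minus its control mean. Exact permutation tests were 2-sided over 70 splits.

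The members, lists and tests were chosen with earlier results of these data known. Genes given in every mouse were the 8 with the lowest p, the defining genes of each role, and those that 1 mouse or an outlier spot decided. *Ptk2b*, *Grin2a*, *Grin3a*, *Tcf7l2*, *Rora*, *Prkcd*, *Drd1*, *Grik4* and the values of *Braf* in every mouse were chosen after their values were seen. The precision is limited by 8 arrays. The RNA-seq, RT-PCR and adduct data were not analysed here.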

Additional observations from a re-analysis of the deposited data

Results flagged for a closer look

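In 7 of 91 groups of 4 mice, over the listed genes and the dimmer probes of *Camk2d* and *Homer1*, 1 mouse stood apart from the other 3 by Dixon's ratio of its gap to the range of the group, past the 95% limit of that test; chance gives about 1 in 20 groups. Probes of a gene share the same mice and are not independent, and 2 of the 7 cases are dimmer *Camk2d* probes added after their values were seen. BaP mouse 4 was the mouse apart in 4 of these cases. For *Camk2d* the ratio was 0.888 on probe A_52_P188261 (BaP mouse 4 at -0.28, the others at -1.93 to -1.75) and 0.862 on probe A_55_P1978830 (-0.67, against -1.94 to -1.77). For *Ptk2b* it was 0.854 (BaP mouse 4 at 4.05, the others at 4.66 to 4.77), and for *Shank3* 0.845 (3.46, against 3.57 to 3.60). *Dlgap1* had a ratio of 0.918 from BaP mouse 1 (4.81, against 4.69 to 4.70). Control mouse 3 was apart for *Ppp1r1b* at a ratio of 0.89 (4.53, against 4.03 to 4.09) and for *Sipa1l1* at 0.855 (3.90, against 4.02 to 4.05).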

How the results depend on the processing

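Under 26 alternative settings 0 of the 40 genes and 0 of the other pathway genes were called, and the lowest adjusted p of a listed gene on its brightest probe was 0.181. Of 416 estimates for 16 named genes, 384 kept their direction and 32 turned, and none of the turned estimates was called under any setting. Several settings could not turn an estimate. Quantile scaling of average intensities, both changes of filter, the robust fit, the F test and both blocks leave the log2 fold changes of these genes as they were. The 384 thus include directions that were fixed in advance.

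Median centring in place of loess moved the median of all genes to 0.21 and of the list to 0.18, with 34 genes above 0, 10 at an unadjusted p under 0.05 (22.8% of all genes) and 2 without overlap (10.2%); it turned *Camk2a* (0.16), *Camk2b* (0.18), *Creb1* (0.0661), *Dlg2* (0.0216), *Homer1* (0.19), *Nrgn* (0.19) and *Shank3* (0.16). The Cy5 channel alone turned *Camk2b* (0.10), *Nrgn* (0.18) and *Shank3* (0.0742).

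In row 1 of the slide, the median of the list was 0.0821, 23 genes had no overlap (39.9% of all) and *Camk2a* (0.0714), *Nrgn* (0.0631) and *Shank3* (0.11) turned. In row 2, 16 had no overlap (38.6% of all), 22 had an interval within 1.5-fold, and *Cnksr2* (-0.28), *Creb1* (0.16) and *Dlg4* (-0.25) turned. Grouped by source name, the median was 0.0884, 5 genes had an unadjusted p under 0.05 (4.49% of all) and 4 no overlap (2.64% of all), and *Camk2a* (0.17), *Dlg2* (0.16), *Dlg3* (-0.0561), *Grip1* (0.0121), *Nrgn* (0.12), *Ppp3ca* (-0.10), *Shank1* (0.0928) and *Shank3* (0.17) turned.

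Leaving out 1 mouse at a time, genes at an unadjusted p under 0.05 ran from 0 to 5 (5.36% to 12.3% of all genes), those without overlap from 0 to 4 (6.67% to 11.8%), and all probes called from 1 to 3. Estimates of 16 of the 40 genes took both signs; of the named genes, those that turned ran from -0.17 to 0.0229 (*Camk2a*), -0.15 to 0.29 (*Cnksr2*), -0.15 to 0.00558 (*Creb1*), -0.0618 to 0.18 (*Dlg4*) and -0.16 to 0.0314 (*Homer1*). The count at an unadjusted p under 0.05 was 4 with Cy5 alone (8.24% of all genes), 4 with slide row as a block (8.95%), 1 at an offset of 10 (8.2%), 0 with the gene-wise F test (8.69%) and 0 with the scanner's processed signals (7.69%). All probes called were 6 with Cy5 alone, 5 without a filter, 7 with an intensity trend and robust eBayes, and 0 with processed signals, the F test, either slide row or the source names. The processed signals were chosen after seeing the data, and the mean-signal alternative was not run. The cause of these moves was not tested.

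Deviations of mice with the same replicate number correlated at -0.35, 0.03, -0.01 and -0.01, so no pairing showed. These values are too few to exclude one. With the replicate number as a block, 3 genes had an unadjusted p under 0.05 (7.93% of all genes) in place of 2 and 0 were called. All 40 genes were above background on all arrays, and dim signal removed none of them.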
